A study of Mus musculus with 27 samples.

Results

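The change of synaptic gene expression in the mouse cortex between postnatal day 4 (P4) and postnatal day 10 (P10) was measured in 6 of the 27 RNA pools of the series, 3 at each age. The pools are those labelled as cortex at P4 or P10, with none left out. Every pool held whole-tissue cortex RNA of 5 male Swiss Webster mice, an outbred stock, born to germ-free dams. One pool at each age came from germ-free mice given sterile buffer (GF). Another came from mice conventionalized through the dam and the bedding with the gut microbiota of specific pathogen free mice (CONV). The remaining pool came from mice treated by mouth with 4 human *Bifidobacterium* species (BIF). Each treatment had an isolator of its own. The 3 pools of an age therefore differed in colonization and were not repeats of one condition. The spread between single mice cannot be seen in pooled RNA.

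In the first postnatal weeks, cortical neurons extend axons and dendrites and form most of their synapses, while NMDA receptors change their subunits and sensory-driven activity begins to shape circuits. Neuronal activity raises the transcription of immediate early genes, which encode transcription factors and synaptic regulators, and of growth factors such as *Bdnf*. Adhesion molecules and guidance receptors act earlier, in migration, axon growth and first contacts.

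Expression was measured by quantitative PCR on an array of 84 synaptic plasticity genes, 5 reference genes and 3 kinds of control well. Each gene had 1 threshold cycle (CT) per pool. The CT is the cycle at which fluorescence crosses a set line, and it falls by about 1 when the template doubles. Levels are given as the negative delta CT, which is the mean CT of the reference genes *B2m*, *Gapdh*, *Gusb* and *Hsp90ab1* minus the CT of the gene, on the log2 scale. A higher level means more transcript, and levels are compared between pools for one gene, not between genes. The mean CT of the 4 reference genes was 21.97, 22.09 and 21.78 in the GF, CONV and BIF pools at P4 and 22.02, 21.99 and 21.91 at P10. These ranges overlapped (exact permutation test, two-sided, p = 0.8; the smallest p of 3 pools against 3 is 0.1).

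Of the 84 pathway genes, 30 were higher (35.7%) and 20 were lower (23.8%) at P10 than at P4. The calls were made with limma, with treatment as a block, at a Benjamini-Hochberg adjusted p under 0.05. Each of the 50 called genes moved the same way in the GF, CONV and BIF pairs. At P10, 31 genes (36.9%) lay above every P4 pool and 22 genes (26.2%) lay below every P4 pool, and 47 of these were among the 50 called. A rise of at least 1.5-fold in each of the 3 pairs was seen for 17 genes (20.2%), and a fall of that size for 7 genes (8.33%). The median change of the 84 genes was 0.04 on the log2 scale. In whole tissue, fewer cells of a type and less RNA per cell cannot be told apart. All P10 pools were run on one plate and the P4 pools on 3 other plates, so age and plate cannot be told apart by a fit with plate as a term. With plate as a random block, 24 genes were higher and 17 lower, and the calls of *Adcy8*, *Cebpb*, *Grm2*, *Grm8*, *Kif17*, *Pcdh8*, *Ppp1ca*, *Ppp1r14a* and *Rela* were lost. A fit with neither plate nor the treatment block gave 25 higher and 19 lower. It also lost *Adcy8*, *Grm2*, *Grm8*, *Kif17*, *Pcdh8* and *Ppp1r14a*. The fit with plate lacked the treatment block too, so its losses cannot be put down to plate alone. Of them, those of *Cebpb*, *Ppp1ca* and *Rela* were not seen in the fit with neither. Without the CONV pools, 17 were higher and 13 lower, and the genes lower by 1.5-fold in both remaining pairs numbered 11 without the CONV and 12 without the BIF pools. With *Gapdh* alone as the reference, 11 genes were lower by 1.5-fold in all 3 pairs.

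The split between rises and falls depended on the reference. With *Gapdh* alone, 19 genes were higher and 21 lower, and the median of the 84 genes was shifted by -0.19. With all 5 reference genes, *Actb* included, 37 were higher and 16 lower, and the median was shifted by 0.15. With the median CT of the array's own 84 genes as the reference, 23 were higher and 23 lower. Of the 50 calls, 34 were made in the same direction under each of these 3 references. *Actb*, the cytoskeletal beta-actin gene, moved most of the reference genes. Its CT was 17.65, 17.74 and 17.86 in the GF, CONV and BIF pools at P4 and 18.86, 18.37 and 18.37 at P10, with no overlap (exact permutation p = 0.1). Of the 4 genes in the reference, *Gusb* and *Hsp90ab1* also had higher CTs at P10 without overlap (exact permutation p = 0.1 for each). The CT of *Gusb* went from 25.89, 25.94 and 25.74 to 26.18, 26.09 and 26.00, and that of *Hsp90ab1* from 18.99, 19.19 and 18.99 to 19.50, 19.26 and 19.29. *B2m* and *Gapdh* had lower mean CTs at P10, by 0.26 and 0.16, with overlap.

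**Figure D1:**
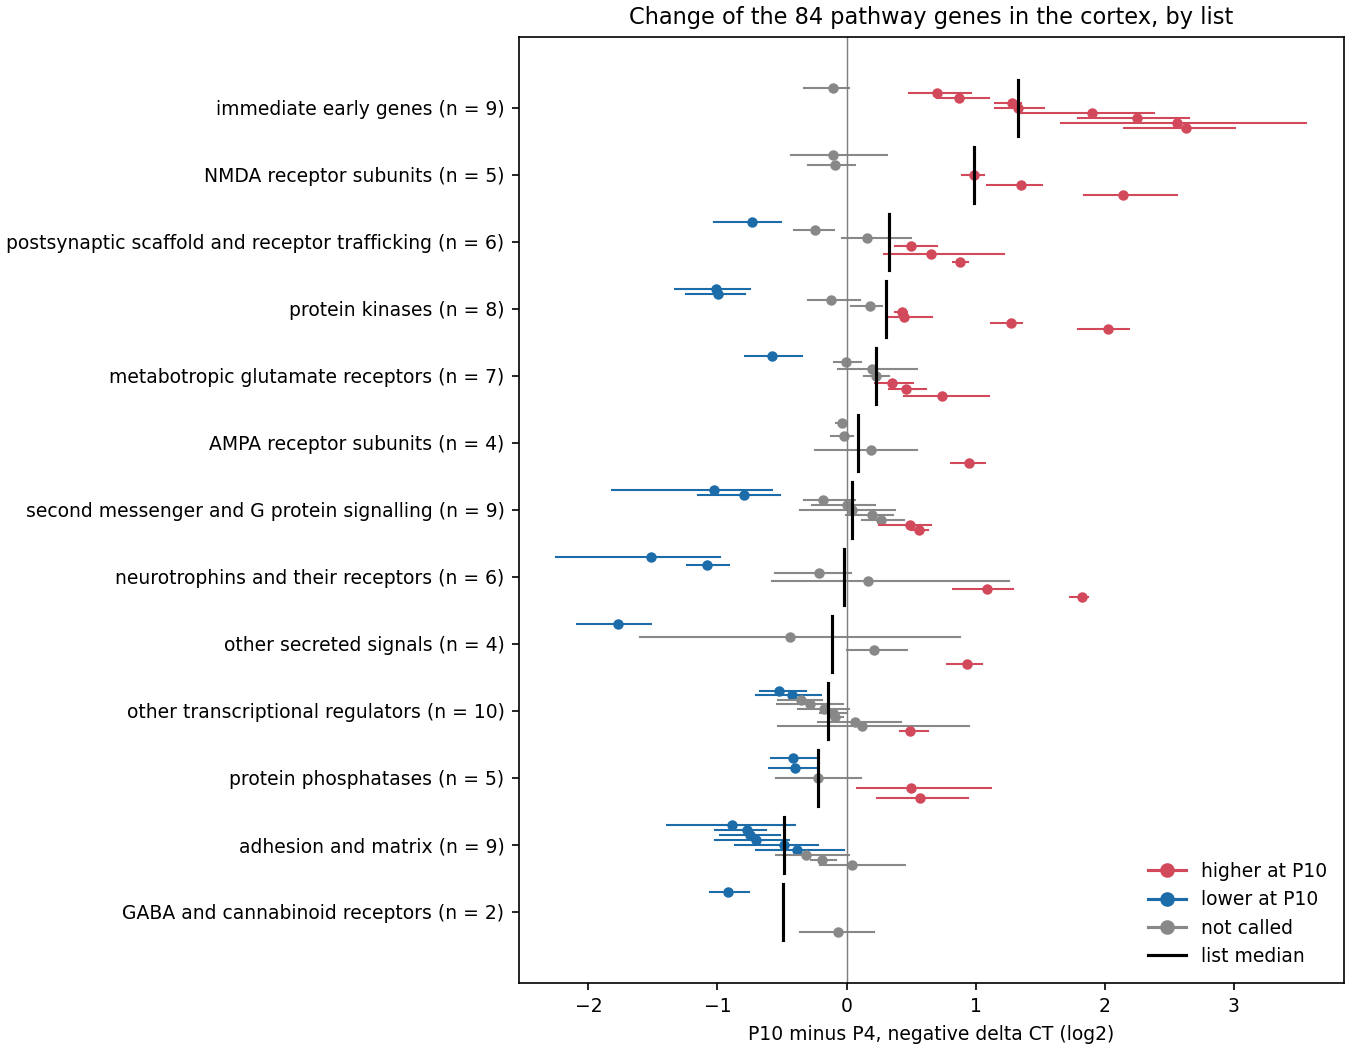
Change of each of the 84 pathway genes from P4 to P10, in log2 units of the negative delta CT, grouped by list. Points are means of 3 treatment pairs, lines run from the lowest to the highest pair, and black bars are list medians. The immediate early genes lie furthest to the right, with a median of 1.33.

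The immediate early genes rose together. Of the 9 members, 8 were higher at P10 and 0 were lower, against 35.7% higher and 23.8% lower among all 84 genes. Their median was 1.33 on the log2 scale against 0.04 for all genes. All but *Jun* and *Egr2* of these genes were called under each of the 3 other references and without the pools of any treatment. *Egr2* was not called with the median CT as the reference, nor without the pools of any one treatment. The widest mean rise over the 3 pairs was that of *Egr4*, a zinc finger transcription factor. Without the CONV pools *Arc* and *Egr1* rose further (2.61 and 2.48 against 2.44 on the log2 scale). Without the BIF pools *Arc* did (3.01 against 2.87). The level of *Egr4* was -7.16, -7.52 and -6.75 in the GF, CONV and BIF pools at P4 and -4.43, -4.51 and -4.60 at P10. All 3 P10 pools thus lay well above the P4 pools, a 6.20-fold rise (2.63 ± 0.196 on the log2 scale, SE of the limma fit, 3 pairs, limma adjusted p = 5.45e-27). *Arc* encodes a protein that takes part in the endocytosis of AMPA receptors at active synapses. Its level was -6.54, -6.48 and -5.58 at P4 and -2.98, -4.01 and -3.92 at P10, in the same order of pools. The mean rise of *Arc* was 5.91-fold, and the pairs differed, with 3.56 in GF, 2.46 in CONV and 1.66 in BIF on the log2 scale. Among the P4 pools BIF was highest for *Arc*, and among the P10 pools GF was highest.

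*Egr1*, the best known member of its family in memory research, was almost the same in the 3 P4 pools, at -3.58, -3.52 and -3.58. At P10 it was -0.93, -1.72 and -1.26 in the GF, CONV and BIF pools, all above the P4 pools, a 4.77-fold rise. *Fos*, a subunit of the AP-1 transcription factor, had levels of -7.16, -6.90 and -6.39 at P4 and -4.78, -4.93 and -5.04 at P10. The GF pool was the lowest for *Fos* at P4 and the highest at P10, and the mean rise was 3.74-fold. *Egr3* rose 2.43-fold, with 1.35, 1.34 and 1.15 on the log2 scale in the GF, CONV and BIF pairs. *Junb*, another AP-1 subunit, rose 2.52-fold, but its CTs reached 31.48, where a CT is less precise. The nuclear receptor gene *Nr4a1* rose 1.83-fold and *Egr2* 1.62-fold. *Jun*, whose well was named only by its place in alphabetical order, had a mean difference of -0.10 and pairs of 0.02, -0.33 and 0.00.

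**Figure D2:**
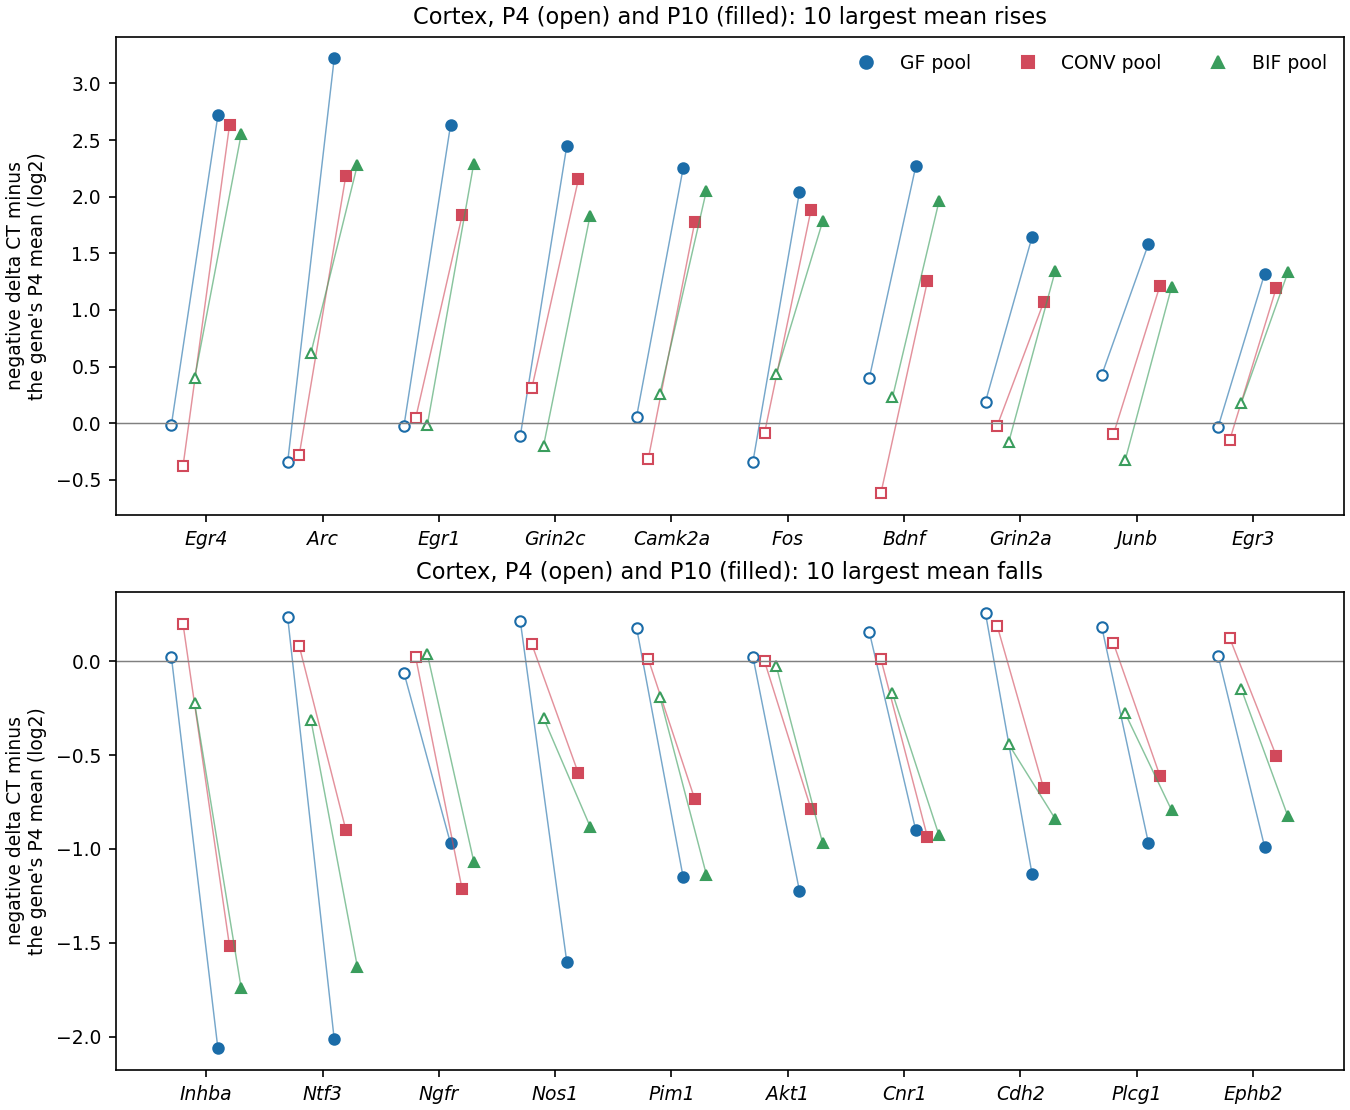
Level of the 10 genes with the largest mean rise (top) and the 10 with the largest mean fall (bottom) in each cortex pool, as negative delta CT minus the P4 mean of the gene, in log2 units. Open symbols are P4 pools and filled symbols P10 pools, joined within a treatment, and the ages do not overlap for any of the 20 genes.

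Promoter sequences are shown for 4 of the early genes that rose together. Of the 9 early genes, 6 were matched by symbol to the RefSeq promoters of build GRCm38.p6, which run from 250 bases before the start to 50 bases after it. The motif TGACG, the core of the cyclic AMP response element, was searched on both strands and occurred in 5 of the 6 (*Egr2*, *Egr4*, *Fos*, *Junb* and *Nr4a1*). It was present in 20.8% of all 32851 promoter windows of the table and in 25 of the 55 array genes that were matched. The full palindrome TGACGTCA, which holds TGACG on each strand, was in 1.79% of all windows and in 0 of the 6. The CArG box, the binding motif of serum response factor, was in 1.63% of all windows and in 1 of the 6, *Egr2*. Capitals mark TGACG or its reverse complement, and each sequence is written 5′ to 3′ on the strand of the gene.
Fos, chr12:85473640-85473939, plus strand: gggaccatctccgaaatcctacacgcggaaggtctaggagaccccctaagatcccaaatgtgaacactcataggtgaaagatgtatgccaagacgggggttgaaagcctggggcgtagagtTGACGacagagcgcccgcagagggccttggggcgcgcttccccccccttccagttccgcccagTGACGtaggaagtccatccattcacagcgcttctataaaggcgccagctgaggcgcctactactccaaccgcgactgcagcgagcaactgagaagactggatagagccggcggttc
Egr4, chr6:85513540-85513839, minus strand: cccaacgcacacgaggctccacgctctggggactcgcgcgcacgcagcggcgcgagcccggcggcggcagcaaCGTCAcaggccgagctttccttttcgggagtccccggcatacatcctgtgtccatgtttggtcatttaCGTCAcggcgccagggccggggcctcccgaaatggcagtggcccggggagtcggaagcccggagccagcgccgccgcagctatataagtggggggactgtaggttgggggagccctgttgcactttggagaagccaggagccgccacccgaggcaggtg
Junb, chr8:84978699-84978998, minus strand: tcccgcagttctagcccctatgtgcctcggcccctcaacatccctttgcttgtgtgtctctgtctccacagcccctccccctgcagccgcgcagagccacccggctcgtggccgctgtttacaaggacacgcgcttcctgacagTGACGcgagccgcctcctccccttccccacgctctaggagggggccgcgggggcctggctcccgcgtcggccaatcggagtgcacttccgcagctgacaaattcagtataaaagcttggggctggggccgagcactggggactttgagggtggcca
Nr4a1, chr15:101266596-101266895, plus strand: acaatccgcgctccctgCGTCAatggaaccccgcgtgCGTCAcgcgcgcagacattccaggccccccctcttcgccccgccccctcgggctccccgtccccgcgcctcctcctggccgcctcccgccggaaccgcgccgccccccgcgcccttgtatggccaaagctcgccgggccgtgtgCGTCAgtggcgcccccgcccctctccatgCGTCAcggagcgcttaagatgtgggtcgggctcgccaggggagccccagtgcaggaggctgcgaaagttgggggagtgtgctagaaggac
In this window *Fos* had 2 matches, *Egr4* 2, *Junb* 1 and *Nr4a1* 4. Relative to the start, the nearest match began at -66 in *Fos*, -109 in *Egr4*, -106 in *Junb* and -40 in *Nr4a1*. A match describes the letters only.

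Of the 5 NMDA receptor subunits, 3 were higher at P10, 0 were lower and 2 were not called, against 35.7% higher and 23.8% lower among all 84 genes, and these counts were the same under each of the 3 other references. *Grin2a* encodes the subunit of mature receptors with fast decay. Its level was -3.30, -3.52 and -3.66 in the GF, CONV and BIF pools at P4 and -1.85, -2.42 and -2.14 at P10. The ages did not overlap, and the rise was 2.55-fold (1.35 ± 0.151, SE, 3 pairs, limma adjusted p = 5.54e-15). *Grin2c*, best known from cerebellar granule cells, had levels of -8.79, -8.36 and -8.88 at P4 and -6.23, -6.52 and -6.84 at P10. Every P10 pool was above the P4 pools for *Grin2c*, and the rise was 4.43-fold, at CTs of up to 30.76. *Grin1*, the subunit common to all NMDA receptors, rose 1.99-fold, with pairs of 1.01, 1.06 and 0.89 on the log2 scale. The subunits that dominate in the fetal and newborn brain were not called. *Grin2b* had pairs of -0.30, 0.06 and -0.03, and *Grin2d* had pairs of -0.43, 0.31 and -0.19.

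Among the 4 AMPA receptor subunits only *Gria3* was called, as higher, against 35.7% higher and 23.8% lower among all 84 genes. Its level was -2.36, -2.58 and -2.51 in the GF, CONV and BIF pools at P4 and -1.29, -1.77 and -1.56 at P10, a 1.93-fold rise without overlap. *Gria1* had a mean difference of -0.03 with a 95% interval from -0.32 to 0.25, and *Gria4* one of -0.02. *Gria2*, whose subunit keeps calcium out of the channel, had pairs of -0.25, 0.27 and 0.54. *Gria2* was called higher with all 5 reference genes and without the GF pools. The wells of *Gria1*, *Gria3* and *Gria4* were named by their place in alphabetical order.

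The 7 metabotropic glutamate receptors had a median of 0.23, with 3 higher, 1 lower and 3 not called, against 35.7% higher and 23.8% lower among all 84 genes. *Grm4*, a presynaptic receptor, had levels of -4.21, -4.36 and -4.15 at P4 and -3.54, -3.26 and -3.70 at P10, a 1.67-fold rise without overlap. *Grm3*, which is prominent in astrocytes, fell by 0.58 on the log2 scale, with pairs of -0.79, -0.60 and -0.35. Neither *Grm4* nor *Grm3* was called without the CONV pools. *Grm8* and *Grm2* rose 1.38-fold and 1.27-fold, and neither call was made with *Gapdh* or the median CT as the reference, with plate as a random block, without the treatment block or without the pools of any one treatment. *Grm5* and *Grm7* had mean differences of 0.00 and 0.20, and *Grm7* was called higher with all 5 reference genes. Only 1 member was called higher with *Gapdh* alone and 5 with all 5 reference genes.

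Of the GABA and cannabinoid receptors, *Cnr1* was lower at P10 and *Gabra5* was not called. *Cnr1* encodes the presynaptic cannabinoid receptor CB1. Its level was 0.15, 0.00 and -0.18 in the GF, CONV and BIF pools at P4 and -0.91, -0.94 and -0.94 at P10. The 3 P10 pools were nearly equal and below each P4 pool, a 1.89-fold fall (-0.92 ± 0.147, SE, limma adjusted p = 1.36e-08). *Gabra5*, a GABA-A receptor subunit of hippocampal and cortical pyramidal cells, had pairs of -0.36, 0.21 and -0.06.

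The protein kinases moved in both directions, with 4 of 8 higher and 2 lower, against 35.7% and 23.8% of all 84 genes, and with *Gapdh* alone 2 were higher and 2 lower. *Camk2a* encodes the alpha subunit of calcium/calmodulin-dependent kinase II, an abundant enzyme of forebrain excitatory synapses. Its level was 0.07, -0.30 and 0.27 in the GF, CONV and BIF pools at P4 and 2.26, 1.79 and 2.06 at P10. The gap between the ages was far wider than the spread within either age, and the rise was 4.07-fold (2.03 ± 0.145, SE, 3 pairs, limma adjusted p = 1.54e-28). *Prkca*, a protein kinase C isoform, rose 1.35-fold and lost its call with *Gapdh* alone and without the CONV or BIF pools. *Akt1*, a survival and growth kinase, fell from -0.11, -0.14 and -0.16 to -1.36, -0.92 and -1.10. *Pim1* fell by 1.01 on the log2 scale, but its well could not be told apart from that of *Pick1*, which had a mean difference of -0.24 and was called only with the median CT as the reference, as lower. *Camk2g* and *Prkg1* had mean differences of 0.18 and -0.12, and *Camk2g* was called higher with all 5 reference genes.

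Of the 6 postsynaptic scaffold and trafficking genes, 3 were higher and 1 was lower, against 35.7% and 23.8% of all 84 genes. Their median was 0.33, and with *Gapdh* alone 1 was higher and 1 lower. *Synpo* encodes synaptopodin, a protein of the spine apparatus. It had levels of -2.41, -2.48 and -2.50 at P4 and -1.59, -1.60 and -1.56 at P10, a 1.84-fold rise that was nearly equal in the 3 pairs. *Dlg4*, which encodes the scaffold protein PSD-95, rose 1.42-fold and lost its call with *Gapdh* alone and without the CONV pools. *Kif17*, a dendritic motor protein gene, rose 1.58-fold at CTs of up to 30.43. It lost its call with *Gapdh* or the median CT as the reference, with plate as a random block (adjusted p = 0.121), without the treatment block, without the BIF pools and, at 0.37 on the log2 scale, without the CONV pools. *Grip1*, an adaptor of AMPA receptors, fell by 0.73 on the log2 scale, with pairs of -1.03, -0.51 and -0.67. *Homer1* had pairs of -0.04, 0.00 and 0.50 and was called higher only with all 5 reference genes.

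Of the 5 protein phosphatases, 2 were higher and 2 lower, against 35.7% and 23.8% of all 84 genes. *Ppp3ca*, the catalytic subunit of calcineurin, rose 1.49-fold, from 0.87, 0.60 and 0.39 to 1.10, 1.14 and 1.34, and lost its call with *Gapdh* alone and without the CONV or BIF pools. *Ppp1cc* and *Ppp1ca*, catalytic subunits of protein phosphatase 1, fell by 0.42 and 0.40 on the log2 scale, and neither was called with all 5 reference genes or without the GF or CONV pools. *Ppp1r14a* was called at 0.50, but its ages overlapped and its pairs were 1.12, 0.08 and 0.30. Without the GF pools it was 0.19 and not called. The direction of this list depended on the reference: 0 were higher and 2 lower with *Gapdh* alone, and 2 were higher and 0 lower with all 5 reference genes.

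Of the 9 second messenger and G protein genes, 2 were higher and 2 lower, against 35.7% and 23.8% of all 84 genes, with a median of 0.04 that was -0.15 with *Gapdh* alone and -0.05 with the median CT. *Nos1* encodes neuronal nitric oxide synthase. Its level was -3.57, -3.70 and -4.09 in the GF, CONV and BIF pools at P4 and -5.39, -4.38 and -4.66 at P10. The GF pool was the highest at P4 and the lowest at P10, and the mean fall was 1.03 on the log2 scale, or 0.63 without the GF pools. *Plcg1*, a phospholipase downstream of growth factor receptors, fell by 0.79. *Rab3a*, a GTPase of synaptic vesicles, rose 1.48-fold with pairs of 0.63, 0.50 and 0.55, and *Adcy8* rose 1.41-fold. Both lost their calls with *Gapdh* alone and without the CONV pools. That of *Adcy8* was also lost with the median CT, with plate as a random block (adjusted p = 0.121), without the treatment block and without the GF or BIF pools, and that of *Rab3a* was not. The other adenylyl cyclase gene, *Adcy1*, had a mean difference of 0.00.

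Neurotrophins and their receptors moved in opposite directions, with 2 of 6 higher and 2 lower, against 35.7% and 23.8% of all 84 genes. The numbers of calls were the same under all 4 references. *Bdnf*, the ligand of TrkB, had levels of -5.54, -6.56 and -5.71 in the GF, CONV and BIF pools at P4 and -3.67, -4.68 and -3.98 at P10. The CONV pool was lowest at both ages, and the rise was nearly the same in each pair, at 1.87, 1.87 and 1.73, or 3.55-fold. *Ntf3*, which encodes neurotrophin 3, had levels of -3.01, -3.16 and -3.56 at P4 and -5.26, -4.14 and -4.88 at P10. It fell in each pair, by 2.25 in GF, 0.98 in CONV and 1.32 in BIF, a 2.86-fold mean fall. *Ngfr*, the p75 receptor gene, had levels of -6.01, -5.92 and -5.91 at P4 and -6.92, -7.16 and -7.02 at P10. The fall was 2.12-fold and the pools of an age lay close together. *Ntrk2*, which encodes TrkB, had pairs of -0.56, -0.12 and 0.03, and *Ntf5*, at CTs of up to 33.97, had pairs of 1.26, -0.18 and -0.58.

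Of the 4 other secreted signals, 1 was higher and 1 lower, against 35.7% and 23.8% of all 84 genes. *Inhba*, the subunit of activin A, fell furthest of all genes. Its level was -4.05, -3.88 and -4.30 in the GF, CONV and BIF pools at P4 and -6.14, -5.59 and -5.82 at P10, without overlap. The fall was 3.42-fold (-1.77 ± 0.174, SE, 3 pairs, limma adjusted p = 4.40e-18). *Nptx2*, a neuronal pentraxin that clusters AMPA receptors, rose 1.91-fold, from -4.26, -4.30 and -4.22 to -3.21, -3.52 and -3.26. *Igf1* had pairs of 0.17, 0.00 and 0.47 and was called higher only with all 5 reference genes.

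Adhesion and matrix genes were the list with the most falls. Of 9 members, 6 were lower and 0 were higher, against 23.8% and 35.7% of all 84 genes. Their median was -0.48, and with all 5 reference genes 5 were lower. *Cdh2*, which encodes N-cadherin, had levels of -2.31, -2.38 and -3.01 in the GF, CONV and BIF pools at P4 and -3.70, -3.24 and -3.40 at P10. Its mean fall was 0.88 on the log2 scale, and the pairs ran from -1.39 in GF to -0.40 in BIF. *Ephb2*, a receptor of ephrins in axon guidance, fell from -1.37, -1.27 and -1.55 to -2.39, -1.90 and -2.22. *Ncam1*, the neural cell adhesion molecule, fell by 0.75, from 1.46, 1.46 and 1.40 to 0.48, 0.95 and 0.66. *Reln*, the extracellular signal of neuronal layering, fell from -1.02, -1.12 and -1.44 to -2.04, -1.57 and -2.08. For these 4 genes every P10 pool lay below every P4 pool. *Adam10* and *Pcdh8* fell by 0.48 and 0.38, and neither call was made without the GF pools or without the CONV pools. *Adam10* was -0.29 without the GF pools and *Pcdh8* -0.23 without the CONV pools. The call of *Pcdh8* was also lost with plate as a random block (adjusted p = 0.199), without the treatment block, without the trend and with all 5 reference genes. *Plat*, *Timp1* and *Mmp9* had mean differences of -0.19, 0.04 and -0.31.

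Of the 10 other transcriptional regulators, 1 was higher, 2 were lower and 7 were not called, against 35.7% higher and 23.8% lower among all 84 genes. The largest difference was that of *Sirt1*, a protein deacetylase, which fell by 0.52 on the log2 scale, with pairs of -0.67, -0.59 and -0.32, and was not called without the CONV pools. *Rela* fell by 0.42 and *Cebpb* rose 1.41-fold, and both lost their calls under at least 1 other reference, with plate as a random block and without the GF or CONV pools. *Cebpb* was also not called without the BIF pools. *Creb1* had pairs of -0.54, -0.29 and -0.03, *Crem* of -0.53, -0.19 and -0.35, and *Srf* of -0.03, -0.13 and -0.11, and none of the 3 was called. *Crem* was called lower with *Gapdh* alone (-0.54, adjusted p = 0.0246) and *Creb1* with the median CT (-0.38, adjusted p = 0.0164).

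Pairs of related genes were also compared within a pool as a difference of 2 CTs, which needs no reference gene. The value is the CT of the second gene minus the CT of the first, and a change in it between ages gives a shift of their ratio in log2 units. For *Grin2b* over *Grin2a* it was 3.05, 3.20 and 3.20 in the GF, CONV and BIF pools at P4 and 1.30, 2.17 and 1.66 at P10. The ratio thus moved toward *Grin2a* in all 3 pairs, by a mean of -1.44 cycles (exact permutation p = 0.1, the smallest possible). *Grin2d* over *Grin2a* moved likewise, from 1.63, 1.76 and 1.89 to -0.25, 0.98 and 0.19. The kinase subunit ratio *Camk2g* over *Camk2a* went from -0.59, -0.29 and -0.97 to -2.75, -2.15 and -2.49. Of all 8 pairs the neurotrophins moved most. *Ntf3* over *Bdnf* was 2.53, 3.39 and 2.15 at P4 and -1.59, 0.54 and -0.90 at P10, a mean shift of -3.34 cycles.

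*Ngfr* over *Ntrk2* shifted by -0.87 cycles, also without overlap of the ages (exact permutation p = 0.1). For 2 of the 8 pairs the ages overlapped. *Gria2* over *Gria1* was 0.24, -0.34 and -0.44 at P4 and 0.01, -0.06 and 0.18 at P10, and it moved down in GF and up in CONV and BIF (exact permutation p = 0.4). *Crem* over *Creb1* had a mean shift of -0.07 (exact permutation p = 0.9). With p-values adjusted over the 8 pairs none was under 0.133, and 3 pools against 3 could not reach 0.05.

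**Figure D3:**
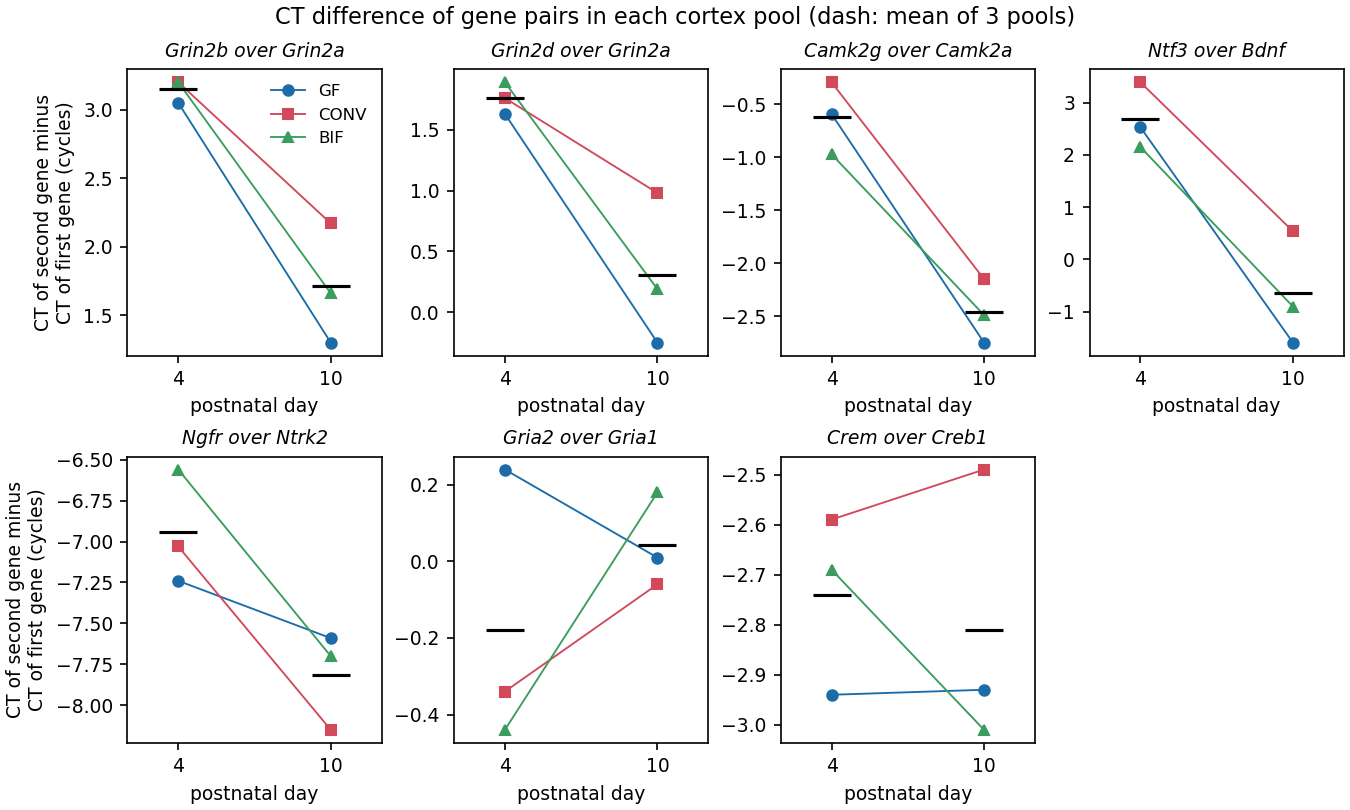
CT difference of 7 gene pairs in each cortex pool at postnatal days 4 and 10, in cycles, with lines joining the pools of one treatment and dashes at the mean of 3 pools. In 5 panels the P10 pools all lie below the P4 pools, and for Ntf3 over Bdnf the mean goes from 2.69 to -0.65.

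The change was widest in the GF pair. Among the 50 called genes the GF pair moved furthest in 35, the CONV pair in 9 and the BIF pair in 6, and with *Gapdh* alone in 25, 14 and 11. The BIF pair moved least in 25. The median absolute change of the 84 genes was 0.59 in GF, 0.44 in CONV and 0.45 in BIF on the log2 scale. With 1 pool per treatment and age the difference between treatments was not tested. The P4 pools of the 3 treatments were on 3 different plates, so treatment and plate cannot be told apart here. The median SD over genes was 0.186 between the 3 P4 pools and 0.152 between the 3 P10 pools.

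Values of the control wells overlapped between the ages. The reverse transcription control had mean CTs of 21.16, 21.08 and 20.81 in the GF, CONV and BIF pools at P4 and 21.04, 21.01 and 21.07 at P10 (exact permutation p = 1). The PCR control had 20.03, 19.77 and 19.64 at P4 and 19.82, 19.84 and 19.75 at P10 (exact permutation p = 0.9). The genomic DNA control was at the limit of detection, a CT of 35, in all 6 pools. The SD between the 3 wells of a control, pooled over 6 pools, was 0.0333 cycles for the reverse transcription control and 0.123 for the PCR control, with up to 0.235 in one pool.

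Markers of cell types did not all move one way. Of the forebrain excitatory markers, *Camk2a* and *Nptx2* rose and *Gabra5* was not called. The astrocyte marker *Grm3* fell. *Reln* and *Nos1*, which mark Cajal-Retzius cells and interneurons, both fell. Of the microglial and macrophage markers, *Tnf* had levels of -10.97, -11.36 and -11.96 at P4 and -12.57, -10.47 and -12.56 at P10, at CTs of up to 34.59, and *Igf1* was not called. *B2m*, another of them, served as a reference gene and had a mean difference of 0.29 to the mean of the 4, with overlap between the ages. The vessel and meninges markers *Plat* and *Timp1* were not called. Among the cerebellar markers *Grm4* and *Grin2c* rose. The part of cell composition in the changes was not tested.

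The cortex was compared with the hippocampus, the other forebrain region of the series, to ask which changes differed in size. In a limma fit of 12 pools with an interaction of region and age, 83 genes had no CT at the limit. The change was higher in the cortex for 7 of them (8.43%) and lower for 1 (1.20%). *Inhba* stood apart. It fell by 2.09, 1.72 and 1.52 in the GF, CONV and BIF pairs of the cortex and had values of 0.38, 0.04 and -0.05 in those of the hippocampus (difference -1.90 ± 0.216, SE, adjusted p = 0.000419). *Fos* rose in both regions but further in the cortex, with a mean of 1.90 against 0.58 (difference 1.32 ± 0.263, adjusted p = 0.0212). *Egr1* rose by 2.25 against 1.35 (adjusted p = 0.0425) and *Egr4* by 2.63 against 1.75 (adjusted p = 0.0441). The *Inhba* and *Fos* differences were called under each alternative that was run. Those of *Egr1* and *Egr4* were not called with *Gapdh* alone or without the BIF pools. *Egr4* was also not called with all 5 reference genes or without the CONV pools. The count of 8 genes was 2 with *Gapdh* alone, 4 without the CONV pools and 2 without the BIF pools.

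Against the cerebellum far more genes differed. The change was higher in the cortex for 11 of 83 genes (13.3%) and lower for 35 (42.2%). *Nos1* fell by 1.03 in the cortex and rose by 2.55 in the cerebellum (difference -3.58 ± 0.348, SE, adjusted p = 0.000111). *Ntf3* likewise fell by 1.51 and rose by 1.82 (difference -3.34, adjusted p = 0.00116). *Grm4* rose in both, by 0.74 in the cortex and by 3.82 in the cerebellum (difference -3.08, adjusted p = 6.49e-05). In the other direction, *Arc* rose by 2.56 against 0.82 (difference 1.74, adjusted p = 0.011) and *Bdnf* by 1.83 against a mean of 0.27 in the cerebellum (difference 1.55, adjusted p = 0.00305). *Gabra5* differed by 1.94 (adjusted p = 0.0434). Its cerebellum pairs were -3.92, -0.55 and -1.55 in GF, CONV and BIF, and without the GF pools the difference was 1.13. That of *Arc* was 1.07 without the GF pools. The median change of the 84 genes was 0.48 in the cerebellum and 0.04 in the cortex, and 10 of the 46 genes were called in opposite directions in these 2 regions.

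**Figure D4:**
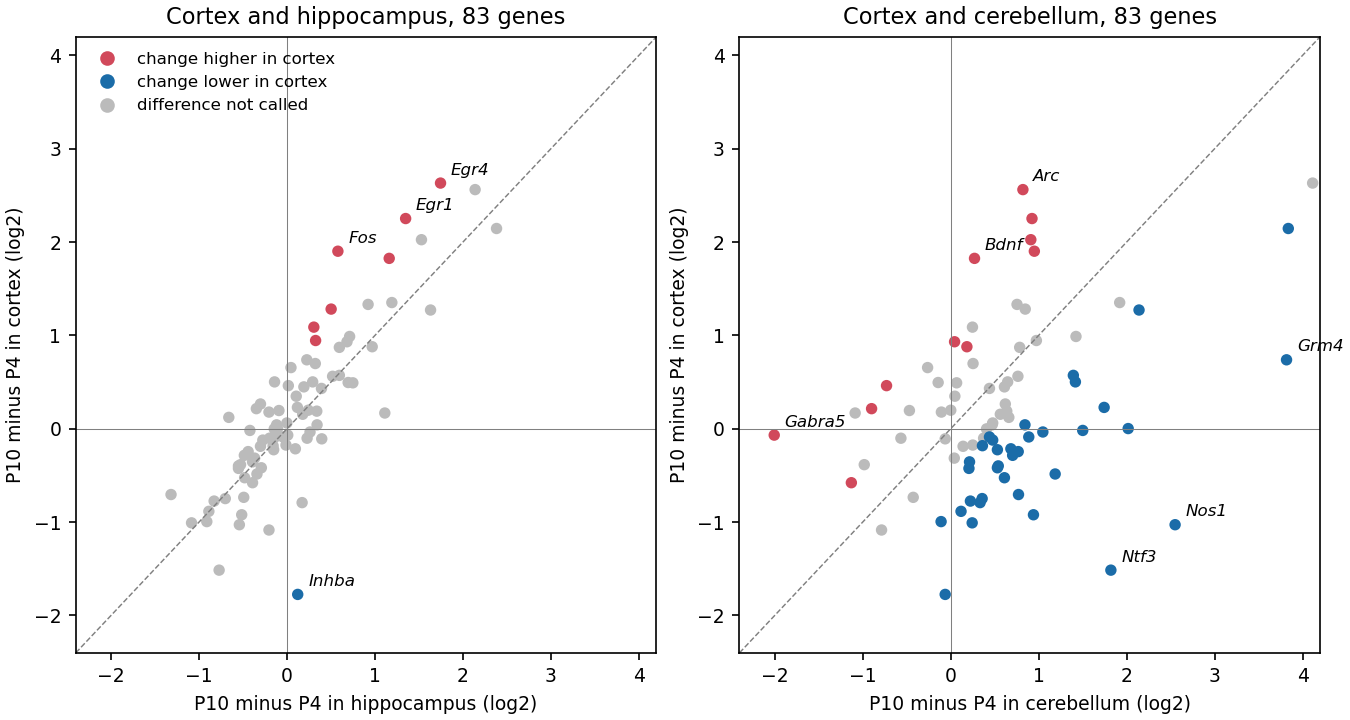
Mean change from P4 to P10 of 83 genes in the cortex (y axis) against the hippocampus (left) and the cerebellum (right), both in log2 units. Coloured points differ between the regions at an adjusted p under 0.05, and named points have the largest differences in each direction, led by Inhba at -1.90 on the left and Nos1 at -3.58 on the right.

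The levels at postnatal day 20 (P20) are given beside those at P10, without a test. *Arc* was -0.90, -2.26 and -0.90 in the GF, CONV and BIF pools at P20, and *Camk2a* was 3.60, 3.34 and 3.30, so both were above their P10 pools. *Ntf3* was -6.04, -6.49 and -6.24, below its P10 pools. *Inhba*, at -6.30, -5.77 and -5.78, overlapped the P10 range. *Nos1* was -4.36, -4.75 and -5.00, and its low GF pool at P10 was not followed by a low GF pool at P20.

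**Figure D5:**
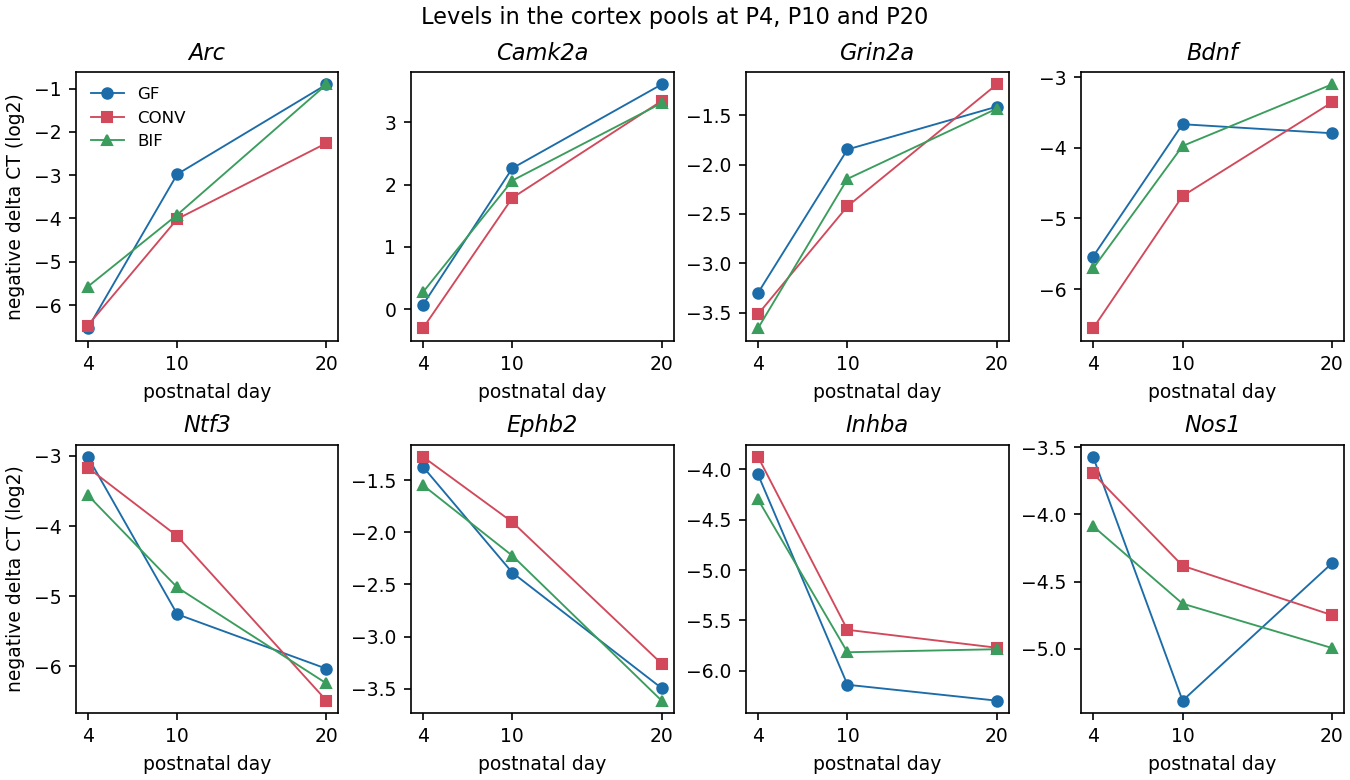
Level of 8 genes in each cortex pool at postnatal days 4, 10 and 20, as negative delta CT in log2 units, with lines joining the pools of one treatment. Arc, Camk2a, Grin2a and Bdnf are higher at P10 than at P4 in all 3 lines, and Ntf3, Ephb2, Inhba and Nos1 are lower.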

How the data were processed

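RNA from the cortex of 5 male mice was pooled for each treatment and age, converted to cDNA and run once on the RT² Profiler mouse synaptic plasticity array. The authors set the threshold by hand, set the limit of detection to a CT of 35 and deposited 1 CT for every well and pool, without normalization. A second deposited table holds the authors' own fold changes between treatments, and it was not used. Wells carry no gene names, so genes were assigned in alphabetical order of symbol, with reference and control wells last. This order came from general knowledge of the array's catalogue layout, since no layout file was available. The study's supplementary gene table differs from it: 4 genes are out of that order, among *Grin2a* to *Grin2d*, *Pick1*, and *Actb* with its neighbour, and 1 gene, *Nr4a1*, is missing. Fold values in another supplementary table of the study support the wells of *Grin2a*, *Grin2c*, *Grin2d* and *Nr4a1*. The value of *Grin2b* matches several wells, and *Pick1* and *Actb* rest on place only. Of the 84 pathway genes, 52 had listed values that pointed to a single well, 10 had listed values shared by several wells, and 22 were assigned by place only, as were 4 reference genes. The place-only genes named in the report are *Akt1*, *Crem*, *Dlg4*, *Ephb2*, *Gria1*, *Gria3*, *Gria4*, *Igf1*, *Jun*, *Pick1*, *Pim1*, *Ppp1ca*, *Prkca*, *Reln* and *Srf*.

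Levels were the negative delta CT to the mean of 4 reference genes. Age was tested with limma 3.58.1 (R 4.3.3), lmFit and eBayes with a trend, treatment as a fixed block and Benjamini-Hochberg adjustment over 84 genes. The estimated prior degrees of freedom were infinite, so each gene took its variance from the trend across genes, with 2 residual degrees of freedom of its own, and the small p-values rest on that shared variance. The residual holds treatment-by-age differences as well as technical scatter. The p-values and SEs of the cortex fit rest on this spread as shared across genes, not on the spread of the gene's own pools. For *Arc* the SD of the 3 pairs was 0.954, while the SE of the fit was 0.174. Pairing was by treatment. The deviations of same-treatment pools from their age means correlated across genes with r of -0.25 in GF, 0.43 in CONV and -0.03 in BIF, so the data do not show the pairing by themselves. Regions were compared by an interaction of region and age. Control wells and gene pairs were compared with exact permutation tests in Python 3.11.15. The scripts were tested on simulated data.

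Genes with a CT at 35 were left out of calls and folds. No pathway gene was at 35 in the 6 cortex pools, and in the region comparisons *Tnf* was fitted and kept in the adjustment over 84 genes but not counted. Named genes are the 10 largest mean rises and falls among the called genes, the largest change of each list, the gene pairs, the cell type markers, the members of the lists, and the 3 largest differences in each direction between regions. The pools and the gene lists were chosen with earlier results of these data known. Alternatives for the reference were *Gapdh*, 5 reference genes or the median pathway CT. Others were a mean CT of 30 or below, no treatment block, eBayes without the trend, a 2-fold threshold, and leaving out each treatment. Plate as a random block, in place of the treatment block, was also fitted.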

Additional observations from a re-analysis of the deposited data

Results flagged for a closer look

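The change from P4 to P10 differed between the cortex and the hippocampus in 8 genes, and between the cortex and the cerebellum in 46 genes, by limma tests of the interaction itself. Against the hippocampus, the difference in change was 1.32 for *Fos*, 0.90 for *Egr1*, 0.89 for *Egr4* and -1.90 for *Inhba*, on the log2 scale with the cortex first. Against the cerebellum it was 1.94 for *Gabra5*, 1.74 for *Arc*, 1.55 for *Bdnf*, -3.58 for *Nos1*, -3.34 for *Ntf3* and -3.08 for *Grm4*. The regions and ages were spread unevenly over 7 plates, and the part of plate in these differences was not tested.

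With the mean of the 4 reference genes, *Tnf* was the single gene whose treatment pairs in the cortex moved past 1.5-fold in opposite directions. With *Gapdh* alone, *Ntf5* and *Nfkbib* did so as well. The P10 level minus the P4 level of *Tnf*, to the mean of the 4, was -1.60 in the GF pair, 0.88 in the CONV pair and -0.61 in the BIF pair. Each pair is 1 pool against 1 pool at CTs near the limit of detection, and the difference between treatments was not tested.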

How the results depend on the processing

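No call changed direction under any alternative. Of the 50 calls, 30 were made under each of the 10 alternatives that applied to them, apart from the filter on high CTs, which does not test *Junb*. Differences not called on either side changed sign 38 times. With *Gapdh* alone, 19 genes were higher at P10, 11 were lower by 1.5-fold in all pairs and 2 differed from the hippocampus. At a threshold of 2-fold, 11 genes were higher and 1 was lower in all 3 pairs. Without the replicate block, that is without pairing by treatment, 25 genes were higher and 19 lower. Without the trend 29 were higher and 19 lower.

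When the pools of one treatment were left out, 17 to 25 genes were higher and 13 to 20 lower, with fewer pools in the fit. The genes past 1.5-fold in both remaining pairs were 17 to 19 higher and 7 to 12 lower. Between 2 and 10 genes differed from the hippocampus and 37 to 44 from the cerebellum. For the 8 gene pairs this was an addition chosen after seeing the data. Each shift moved by less than 1 SD between pools, taken at the age with the wider spread. For *Grin2d* over *Grin2a* the SD was 0.13 at P4 and 0.62 at P10, and for *Grin2b* over *Grin2a* it was 0.087 and 0.44. Without the GF or the CONV pools each of these shifts moved by more than its SD at P4. *Gria2* over *Gria1*, with pairs of -0.23, 0.28 and 0.62, had an SD of 0.37 at P4 and 0.12 at P10. Its shift moved by more than the latter without the GF or the BIF pools. *Ntf3* over *Bdnf* ran from -3.585 to -2.95 cycles. *Crem* over *Creb1*, whose ages overlap, changed sign to 0.055 without the BIF pools. Signal limits the low genes: 6 genes had a CT above 30 in at least 1 cortex pool. Each gene rests on 1 well per pool, so a failed well cannot be seen.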
